A study of Homo sapiens with 6 samples.

Results

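The genes described here are 10 feedback genes of the mitogen-activated protein kinase (MAPK) pathway: SPRY1, SPRY2, SPRY4, SPRED1, SPRED2, DUSP4, DUSP5, DUSP6, ETV4 and ETV5. They were taken by gene name from a table of 62709 genes, and each name matched 1 row. They were followed in HepG2.2.15, hepatocellular carcinoma cells (a HepG2 derivative with integrated hepatitis B virus DNA) labelled as wild type. The first group of 3 libraries came from cells treated for 3 days with a diluted freeze-dried powder of Yinqi Sanhuang Jiedu Decoction, shortened to YQSHJD, a decoction used in traditional Chinese medicine, with the drug making up 10% of the medium. The second group of 3 libraries came from cells given saline, which the treatment protocol calls PBS. All cells were grown in DMEM with fetal bovine serum, penicillin-streptomycin and G418. Whether replicates were separate cultures is not stated in the labels. Each p-value below then measures only the spread among these libraries, which may be technical.

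Growth factor receptors at the cell surface switch on the GTPase RAS, which activates the kinases RAF, MEK and ERK in turn. Active ERK raises the transcription of genes whose products damp the same pathway. Sprouty and SPRED proteins act near the receptor and RAS, dual-specificity phosphatases (DUSPs) remove phosphate from ERK, and ETV4 and ETV5 are transcription factors that carry the signal to further genes. In liver cells the pathway is driven by receptors for fibroblast, epidermal and hepatocyte growth factors and is linked to proliferation.

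After 3 days with YQSHJD, 7 of the 10 genes were lower than with saline and 1 was higher, where 41.4% of all genes tested passed in either direction. All 3 Sprouty genes fell, SPRY4 2.81-fold, SPRY1 2.73-fold and SPRY2 2.09-fold. Both ETV genes fell by more than 1 on the log2 scale, ETV5 with a log2 difference of -1.19 and ETV4 with one of -1.15. SPRED2 fell 1.76-fold and DUSP6 1.35-fold, whereas DUSP5 rose 1.5-fold. SPRED1 and DUSP4 did not pass the test. FPKM is a fragment count divided by gene length and by a depth factor for each library. The test was limma on log2(FPKM + 1), with a Benjamini-Hochberg adjusted p under 0.05 over all 10966 genes tested. Of all those genes, 18.0% were called lower and 23.3% higher, and 2.62% were called lower with a log2 difference of -1 or less (4 of the 10 feedback genes). Under TPM rescaling, which sets every library to the same total, 8 of the 10 were lower and 0 higher, where 39.6% of all genes were lower and 7.99% higher. GC correction, which removes from each library the trend of expression with transcript GC content, left 7 of the 10 lower and 1 higher, where 19.7% of all genes were lower and 24.7% higher. Without any overlap of the groups, 8 of the 10 lay lower and 1 lay higher, against 24.6% and 30.7% of all genes, or 55.3% in either direction. DUSP4 is the eighth lower gene in these counts of 8, and it entered the test through its saline level alone, so that its place there is not independent of the filter. A log2 difference on this scale understates the change of low genes, and folds given without log2 are ratios of mean FPKM.

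The libraries held 13370372 to 15615649 reads in genes, recovered from FPKM and gene length. Mitochondrial ribosomal RNA took 7.01%, 6.63% and 5.60% of these reads in YQSHJD 1, 2 and 3, against 1.92% to 1.96% in the saline libraries. The depth implied by the FPKM values was 0.885, 0.892 and 0.923 times the reads in genes in YQSHJD 1, 2 and 3. It was 1.03 to 1.05 times those reads in saline, so the deposited scale itself differed between the groups. FPKM summed to 422189 to 476123 with YQSHJD and 341948 to 360170 with saline. The sources used here do not say how the depth factor was set. YQSHJD 1 stood apart from its group: log2(FPKM + 1) differed between YQSHJD 1 and the other YQSHJD libraries with an SD over genes of 0.34 and 0.38, against 0.25 between YQSHJD 2 and 3 and 0.22 to 0.24 between saline libraries. The labelled cell type was checked on 11 hepatocyte and hepatoma markers, which all had at least 1 FPKM in every library. Of the 8 fibroblast markers 7 stayed under 1 FPKM in all libraries, as did 4 of 6 endothelial and 5 of 6 leukocyte markers. COL3A1, DCN, THY1, TEK and PTPRC were listed at 0 in every library, and the exceptions above 1 FPKM were ACTA2, PECAM1, VWF and LYZ. Some marker sums moved with the groups: the hepatocyte and hepatoma markers summed to 4925 to 5778 FPKM with YQSHJD and 3548 to 3801 FPKM with saline, and the leukocyte markers, nearly all LYZ, to 207.8 to 223.1 FPKM with YQSHJD and 87.5 to 93.4 FPKM with saline. Much of the hepatocyte and hepatoma rise lay in ALB, with a mean of 2123 FPKM with YQSHJD and 940 FPKM with saline. The means of APOA1, APOB, TF, FGB, AFP and HNF4A were also higher with YQSHJD, whereas those of TTR, SERPINA1, KRT8 and KRT18 were lower. The fibroblast markers summed to 13.2 to 14.0 FPKM with YQSHJD and 15.0 to 19.5 FPKM with saline. The endothelial markers summed to 5.33 to 6.21 FPKM with YQSHJD and 4.89 to 5.47 FPKM with saline. The part of these shifts, and of the mitochondrial RNA, in the results was not tested. In bulk RNA, fewer cells that express a gene and less of its RNA per cell cannot be told apart.

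**Figure D1:**
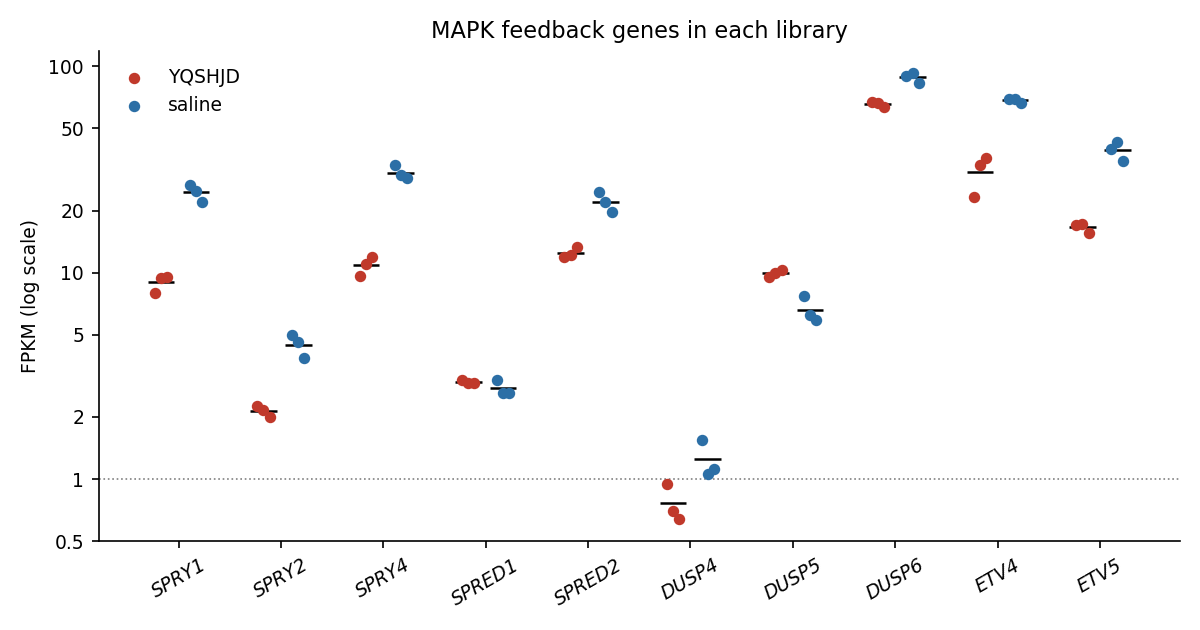
FPKM on a log axis of the 10 genes in each library, with YQSHJD in red to the left of saline in blue, 3 libraries per group as points and the group means as bars. The groups do not overlap for 9 genes, 8 lower and 1 higher with YQSHJD, and overlap for SPRED1; the dotted line marks 1 FPKM, under which all YQSHJD values of DUSP4 lie.

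SPRY4 (ENSG00000187678, chromosome 5, 142310427 to 142326455, minus strand) encodes a Sprouty protein that inhibits signalling from receptors to RAS and ERK. It had 9.60, 11.1 and 12.0 FPKM in YQSHJD 1, 2 and 3, against 33.1, 29.8 and 28.7 FPKM in saline 1, 2 and 3. Every YQSHJD library lay below every saline library, and the value rested on 812 to 1090 reads with YQSHJD and 3009 to 3303 with saline. SPRY4 differed by -1.41 on the log2 scale (standard error 0.11, limma adjusted p = 4.08e-05), rank 82 from the lowest of the 10966 genes. The antisense gene SPRY4-AS1 overlaps it with 52 to 70 reads with YQSHJD and 163 to 185 with saline, and without a stated strand setting its reads cannot be told apart from those of SPRY4.

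SPRY1 (ENSG00000164056, chromosome 4, 123396795 to 123403760, plus strand) encodes a protein of the same family with the same place in the pathway. It had 8.0, 9.46 and 9.49 FPKM in the YQSHJD libraries, against 26.7, 24.8 and 22.0 FPKM in the saline libraries. The groups were far apart, with a log2 difference of -1.35 (standard error 0.11, limma adjusted p = 5.4e-05), which put SPRY1 at rank 100 from the lowest. SPRY2 (ENSG00000136158, chromosome 13, 80335976 to 80341126, minus strand), the family member best known for binding the ubiquitin ligase CBL, was the least abundant of the 3. It had 2.27, 2.17 and 1.99 FPKM with YQSHJD, against 5.01, 4.59 and 3.86 FPKM with saline. The groups did not overlap here either, although SPRY2 rested on 83 to 94 reads with YQSHJD and 203 to 245 with saline. Its log2 difference was -0.80 (standard error 0.11, limma adjusted p = 0.000761).

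Summed over the 3 Sprouty genes, the level was 22.0 ± 1.88 FPKM with YQSHJD and 59.5 ± 5.11 FPKM with saline (SD, n = 3 each), 2.71-fold lower with YQSHJD. Their shares of that sum moved little: SPRY4 made up 49.4% with YQSHJD and 51.3% with saline, SPRY1 40.8% with YQSHJD and 41.2% with saline, and SPRY2 9.74% with YQSHJD and 7.54% with saline. The summed level fell, while no share moved by more than a few percentage points.

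Promoter sequences from RefSeq on GRCh38.p14, covering 250 bases before and 50 bases after a transcription start, were used for 6 of the 10 genes: SPRY1, SPRY2, SPRY4, SPRED1, SPRED2 and DUSP6. Shown 5′ to 3′ on the gene's strand are SPRY4 as the gene with the lowest log2 difference, SPRY2 as the promoter with the longer ETS match, DUSP6 as the most abundant gene, and SPRED1 as the gene that did not fall. Capitals mark GGAA, the core that ETS factors such as ETV4 and ETV5 recognise, or its reverse complement TTCC. The windows are chr5:142324198-142324497, chr13:80341077-80341376, chr12:89352452-89352751 (all minus strand) and chr15:38252586-38252885 (plus strand), in the same order.
SPRY4 promoter: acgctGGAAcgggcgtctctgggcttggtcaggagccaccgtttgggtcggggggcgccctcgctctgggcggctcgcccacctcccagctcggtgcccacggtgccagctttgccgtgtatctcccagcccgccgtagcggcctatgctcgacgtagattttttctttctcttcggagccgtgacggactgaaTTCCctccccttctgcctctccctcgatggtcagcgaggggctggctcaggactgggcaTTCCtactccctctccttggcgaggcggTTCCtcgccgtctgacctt
SPRY2 promoter: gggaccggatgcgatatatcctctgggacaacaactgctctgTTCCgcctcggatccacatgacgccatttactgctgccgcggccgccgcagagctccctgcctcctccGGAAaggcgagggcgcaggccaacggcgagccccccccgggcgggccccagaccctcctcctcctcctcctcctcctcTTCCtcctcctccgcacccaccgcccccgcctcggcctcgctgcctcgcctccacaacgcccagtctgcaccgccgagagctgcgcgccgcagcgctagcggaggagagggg
DUSP6 promoter: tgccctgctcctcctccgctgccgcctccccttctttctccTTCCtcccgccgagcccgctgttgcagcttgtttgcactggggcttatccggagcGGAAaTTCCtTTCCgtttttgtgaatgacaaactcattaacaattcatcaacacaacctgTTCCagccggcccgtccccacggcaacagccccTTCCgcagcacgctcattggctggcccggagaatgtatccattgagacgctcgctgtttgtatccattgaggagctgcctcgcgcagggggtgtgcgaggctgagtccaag
SPRED1 promoter: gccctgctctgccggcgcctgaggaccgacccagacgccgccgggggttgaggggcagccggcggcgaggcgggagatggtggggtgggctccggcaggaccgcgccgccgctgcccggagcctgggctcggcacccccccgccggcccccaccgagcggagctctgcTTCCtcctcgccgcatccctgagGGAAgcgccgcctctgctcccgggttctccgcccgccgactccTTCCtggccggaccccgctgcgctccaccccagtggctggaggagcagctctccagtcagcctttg

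The 6 promoters held 3 to 6 matches to GGAA on either strand: 6 in DUSP6 and SPRED2, 5 in SPRY1, 4 in SPRY4, and 3 in SPRY2 and SPRED1. Such a match stood in 95.5% of 34796 RefSeq promoter windows of the same length, so that nearly every promoter holds one. The longer match CCGGAA, which contains the core, stood in SPRY2 and in none of the other 5, against 17.2% of all windows. TGACG, the core of the cyclic AMP response element, was found in SPRY2, SPRY4 and SPRED2, against 24.5% of all windows. Neither the AP-1 site TGANTCA nor the CArG box of serum response factor was found in any of the 6, and these stand in 7.73% and 1.3% of all windows. The SPRED1 promoter, whose gene did not fall, and the SPRY2 promoter, whose gene fell, had the same number of GGAA matches. Whether any of these matches bears on the changes was not tested.

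**Figure D2:**
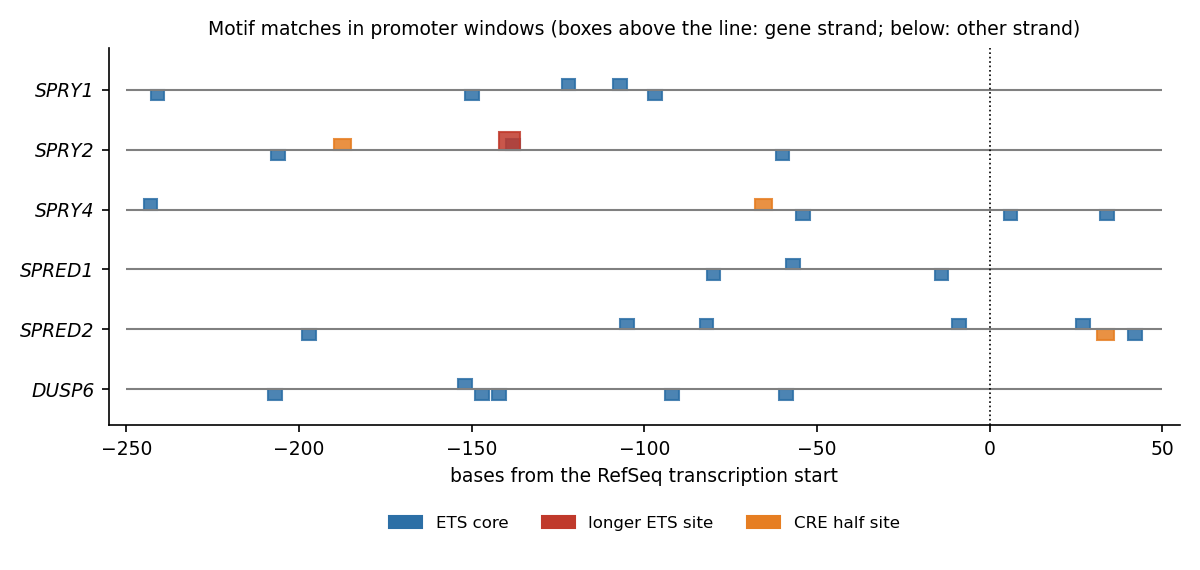
Positions of motif matches in the promoter windows of 6 genes, from 250 bases before to 50 bases after the RefSeq transcription start (dotted line), with matches on the gene's strand above the line and on the other strand below it. Blue boxes are the 4-base ETS core, the red box in SPRY2 is the longer ETS match that contains it, and orange boxes are the cyclic AMP response element core in SPRY2, SPRY4 and SPRED2.

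SPRED2 (ENSG00000198369, chromosome 2, 65310851 to 65432637, minus strand) and SPRED1 (ENSG00000166068, chromosome 15, 38252836 to 38357249, plus strand) encode relatives of Sprouty that bring neurofibromin, which switches RAS off, to the membrane. SPRED2 had 11.9, 12.2 and 13.4 FPKM with YQSHJD, against 24.5, 22.0 and 19.6 FPKM with saline. The groups did not overlap, and the log2 difference was -0.77 (standard error 0.10, limma adjusted p = 0.000772). SPRED1 had 3.02, 2.93 and 2.91 FPKM with YQSHJD, against 3.03, 2.60 and 2.61 FPKM with saline. Here the groups overlapped, since saline 1 was slightly above the YQSHJD libraries. The log2 difference of SPRED1 was 0.08 with a 95% interval of -0.14 to 0.29 (limma adjusted p = 0.525). GC correction turned it to -0.14 (adjusted p = 0.265).

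DUSP6 (ENSG00000139318, chromosome 12, 89347235 to 89352501, minus strand), a cytoplasmic phosphatase that acts on ERK, was the most abundant of the 10 genes per length. It had 67.1, 66.2 and 63.7 FPKM with YQSHJD, against 90.1, 92.7 and 82.8 FPKM with saline. The replicates lay close together and the groups did not overlap, so that a small log2 difference of -0.42 (standard error 0.08) passed with a limma adjusted p of 0.00451. Its 95% interval was -0.61 to -0.24. DUSP5 (ENSG00000138166, chromosome 10, 110497907 to 110511533, plus strand), a nuclear phosphatase that acts on ERK, moved the other way. It had 9.51, 9.96 and 10.3 FPKM with YQSHJD, against 7.69, 6.21 and 5.90 FPKM with saline.

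Every YQSHJD library of DUSP5 lay above every saline library, with a log2 difference of 0.53 (standard error 0.11, limma adjusted p = 0.00577) and 301 to 363 reads with YQSHJD against 242 to 297 with saline. This call depended on how the libraries were scaled. TPM rescaling put the median log2 difference of all tested genes at -0.29, against 0.04 on the deposited scale, and that of DUSP5 at 0.22 (limma adjusted p = 0.185), which is 0.51 above that median. DUSP4 (ENSG00000120875, chromosome 8, 29333064 to 29350684, minus strand), a nuclear phosphatase of ERK and the stress kinases, was near the lower limit of the test. It had 0.95, 0.70 and 0.64 FPKM with YQSHJD, against 1.55, 1.06 and 1.12 FPKM with saline.

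All 3 saline values of DUSP4 reached 1 FPKM and no YQSHJD value did, so it entered the test through its saline level alone. Its log2 difference of -0.34 (95% interval -0.64 to -0.05) did not pass (limma adjusted p = 0.0639), on 61 to 89 reads with YQSHJD and 119 to 172 with saline. Without YQSHJD 1 it was -0.42 and passed (adjusted p = 0.0293). Summed, DUSP4, DUSP5 and DUSP6 had 76.4 ± 1.52 FPKM with YQSHJD and 96.4 ± 5.72 FPKM with saline (SD, n = 3 each). DUSP5 made up 13.0% of that sum with YQSHJD and 6.84% with saline.

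ETV5 (ENSG00000244405, chromosome 3, 186046314 to 186110318, minus strand) and ETV4 (ENSG00000175832, chromosome 17, 43527844 to 43579620, minus strand) encode ETS-domain transcription factors of the PEA3 subfamily, which are induced by fibroblast growth factor signalling. ETV5 had 17.0, 17.2 and 15.5 FPKM with YQSHJD, against 39.9, 42.8 and 34.8 FPKM with saline, a 2.36-fold fall (standard error of the log2 difference 0.10, limma adjusted p = 7.45e-05). ETV4 had 23.2, 33.1 and 35.8 FPKM with YQSHJD, against 69.5, 69.6 and 66.3 FPKM with saline, a 2.23-fold fall (standard error 0.15, limma adjusted p = 0.000597). Neither gene's groups overlapped, and the lowest ETV4 value was that of YQSHJD 1, the library that stood apart.

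Without YQSHJD 1 the log2 difference of ETV4 was -0.97 (adjusted p = 1.11e-05), and GC correction gave -0.89 (adjusted p = 7.14e-05). ETV4 shares its span with DHX8 on the other strand, which held 676 to 831 reads with YQSHJD and 864 to 1018 with saline, beside 1054 to 1749 with YQSHJD and 3721 to 3819 with saline for ETV4. ETV5 overlaps DGKG on its own strand, which held 313 to 502 reads with YQSHJD and 251 to 300 with saline and had a log2 difference of 0.56, beside 1183 to 1268 with YQSHJD and 3290 to 3804 with saline for ETV5. The sources used here do not say how reads in these overlaps were assigned.

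**Figure D3:**
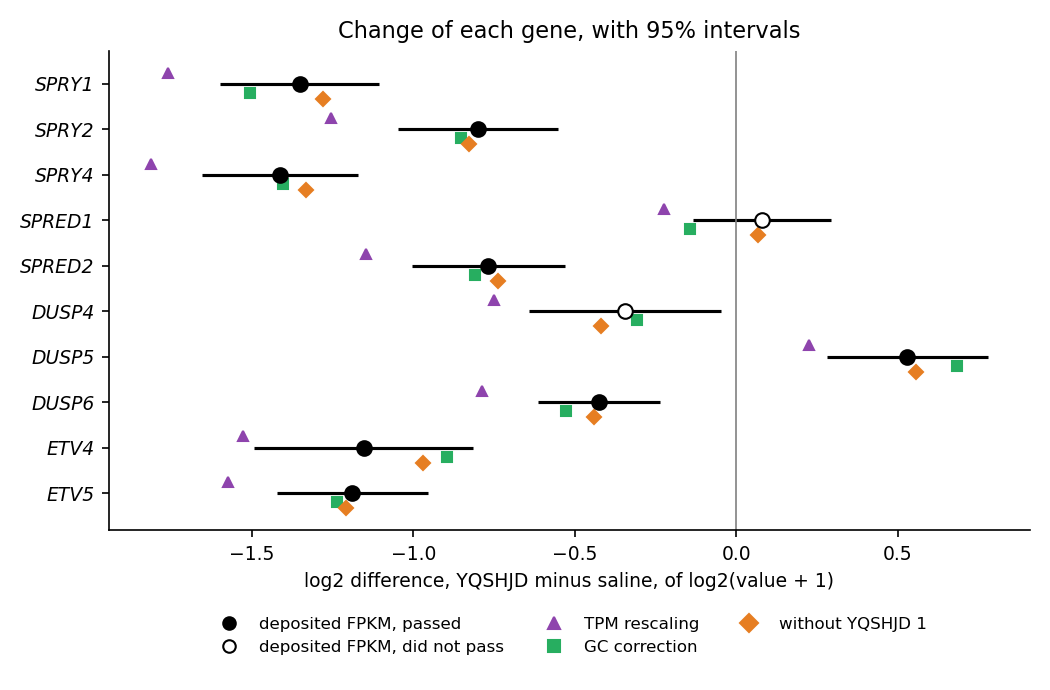
Log2 difference (YQSHJD minus saline) of each gene on the log2(value + 1) scale, with the deposited FPKM as circles with 95% intervals, filled where the gene passed the limma test, and the values after TPM rescaling, after GC correction and without YQSHJD 1 as further symbols. The 7 genes that fell stay left of 0 under all 3 alternatives shown, DUSP5 stays right of 0, and SPRED1 lies on both sides.

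The ratio of a pair of genes within a library does not depend on how that library was scaled, so 5 pairs, chosen after their values were seen, were compared in this way. With 3 libraries against 3, a two-sided exact permutation test cannot give a p under 0.1, and no ratio could pass. SPRED2 stood at 4.23 ± 0.33 times SPRED1 with YQSHJD and 8.01 ± 0.48 times with saline (SD, n = 3 each). DUSP6 stood at 6.63 ± 0.43 times DUSP5 with YQSHJD and 13.6 ± 1.66 times with saline. Neither of these ratios overlapped between the groups (exact permutation p = 0.1 for each, 0.167 after Benjamini-Hochberg adjustment over the 5 ratios).

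SPRY2 stood at 0.20 ± 0.035 times SPRY4 with YQSHJD and 0.147 ± 0.011 times with saline, also without overlap (exact permutation p = 0.1, adjusted 0.167). SPRY1 stood at 0.828 ± 0.031 times SPRY4 with YQSHJD and 0.801 ± 0.032 times with saline, which overlapped (exact permutation p = 0.4). ETV4 stood at 1.87 ± 0.47 times ETV5 with YQSHJD and 1.76 ± 0.14 times with saline (exact permutation p = 0.8). The ETV4 to ETV5 ratio was 1.37 in YQSHJD 1, 1.93 in YQSHJD 2 and 2.30 in YQSHJD 3, so that the spread among YQSHJD libraries exceeded the whole saline range of 1.63 to 1.91.

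**Figure D4:**
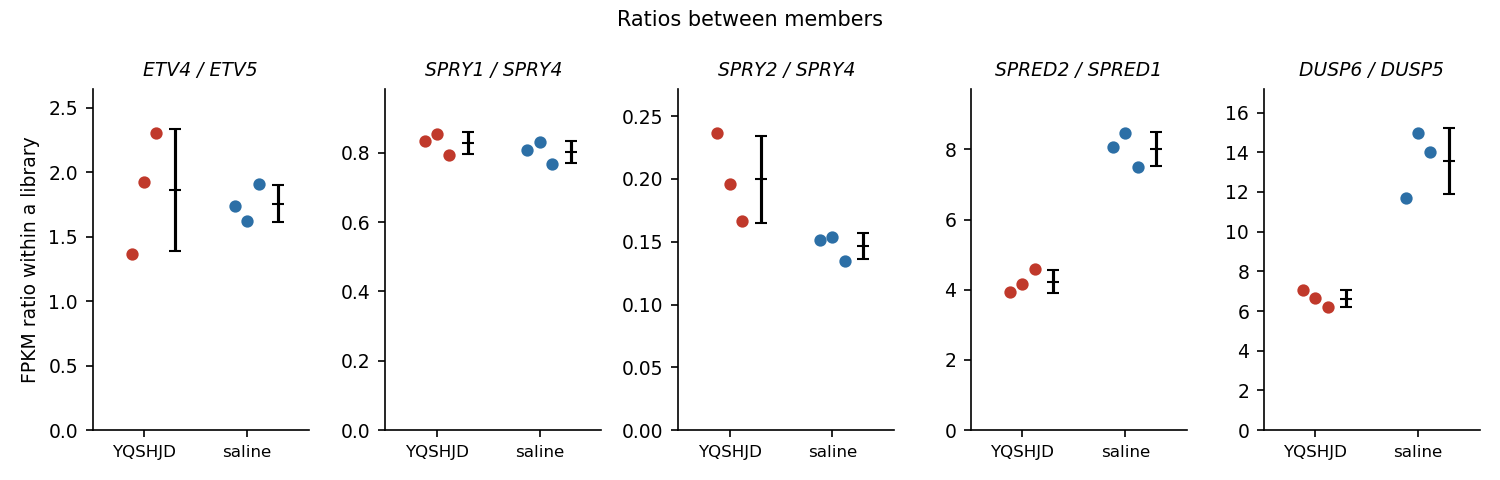
FPKM ratios of 5 pairs of genes within each library, with YQSHJD in red left of saline in blue, points for the 3 libraries of a group and black bars for the mean ± SD. SPRED2 over SPRED1 and DUSP6 over DUSP5 are lower with YQSHJD without overlap and SPRY2 over SPRY4 is higher without overlap, while the other 2 ratios overlap.

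Of 10 paralogs of these families, 4 could be tested and none passed in either direction by limma at an adjusted p under 0.05 (1 of them, DUSP10, at an unadjusted p under 0.05). DUSP9, a cytoplasmic ERK phosphatase like DUSP6 and even more abundant per length, had 67.3, 86.5 and 99.7 FPKM with YQSHJD, against 110.3, 90.2 and 115.4 FPKM with saline. YQSHJD 3 lay above saline 2, and the log2 difference of -0.32 did not pass (limma adjusted p = 0.121). It was 0.05 after GC correction, and it passed without YQSHJD 3 (-0.45, adjusted p = 0.0359). DUSP9 also passed lower under TPM rescaling (-0.69, adjusted p = 0.0245), quantile normalization (-0.41, adjusted p = 0.0337) and array weights (-0.21, adjusted p = 0.049). DUSP1, an immediate early phosphatase of the stress kinases and ERK, had 28.7, 28.6 and 31.8 FPKM with YQSHJD, against 29.5, 26.8 and 25.8 FPKM with saline (log2 difference 0.11, adjusted p = 0.35), and passed with GC content corrected (0.25, adjusted p = 0.0142).

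DUSP7, of the same cytoplasmic group as DUSP6, had a log2 difference of -0.18 (limma adjusted p = 0.328), and DUSP10, which acts on the stress kinases, had one of -0.33 (adjusted p = 0.0533), which passed after GC correction at -0.47 (adjusted p = 0.0146). Under TPM rescaling 3 of these 4 paralogs were lower and 0 higher. The others did not reach the filter. ETV1, the remaining PEA3 factor, had 37 to 83 reads with YQSHJD and 98 to 153 with saline, SPRY3 had 11 to 33 with YQSHJD and 12 to 22 with saline, and SPRED3 had 7 to 19 with YQSHJD and 20 to 37 with saline. DUSP2 and DUSP16 had at most 2 reads in any library, and DUSP8 was listed at 0 in all 6.

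Among 17 receptors and ligands that feed the pathway, 14 were tested, 6 were lower and 5 higher, and the median log2 difference was -0.04, against 0.04 over all genes tested. Over all genes, 18.0% were lower and 23.3% higher. Under TPM rescaling 8 of the 14 were lower and 3 higher, beside 39.6% and 7.99% of all genes. The falls that passed were those of receptors. The 3 genes under the filter, named after their values were seen, were FGFR2 and the ligands FGF19 and FGF21. FGFR2 was listed at 0 in every library. FGF19 had 0 to 4 reads with YQSHJD and 13 to 29 with saline. FGF21 had 2 to 3 reads with YQSHJD and 10 to 24 with saline, and neither ligand was tested. ERBB2, an orphan receptor of the epidermal growth factor (EGF) family, had 2.72, 3.52 and 3.69 FPKM with YQSHJD, against 11.4, 10.4 and 9.78 FPKM with saline (log2 difference -1.42, limma adjusted p = 5.93e-05). Its partner ERBB3 had a log2 difference of -1.13 (adjusted p = 4.09e-05). ERBB2 overlaps MIEN1 and PGAP3 on the other strand.

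FGFR4, the main fibroblast growth factor receptor of hepatocytes, had 118.1, 149.7 and 160.6 FPKM with YQSHJD, against 214.3, 204.9 and 203.1 FPKM with saline (log2 difference -0.55, limma adjusted p = 0.00662). FGFR1 and FGFR3, chosen after their values were seen, had log2 differences of -0.71 and -0.69 (adjusted p = 0.000709 and 0.0132), and the call of FGFR3 was lost without saline 1 or saline 3 (adjusted p = 0.0535 and 0.0501). The remaining fall, also named after its values were seen, was that of the insulin-like growth factor receptor IGF1R (-0.42, adjusted p = 0.0103), a call lost without saline 1 or saline 2 (adjusted p = 0.0532 and 0.0512). With GC content corrected, FGFR4 stood at a log2 difference of -0.22 (adjusted p = 0.0113) and FGFR3 at -0.40 (adjusted p = 0.0108). EGFR, the EGF receptor, had 6.53, 5.83 and 5.42 FPKM with YQSHJD, against 6.54, 6.77 and 5.75 FPKM with saline, which overlapped (log2 difference -0.09, adjusted p = 0.53), although it passed lower under TPM rescaling (-0.43, adjusted p = 0.00826).

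Of the 5 rises, 3 were ligands of EGFR. TGFA, the remaining EGFR ligand of the list, named after its values were seen, overlapped between the groups. Its log2 difference was 0.08 (limma adjusted p = 0.638). The other rises, named after their values were seen, were MET, the hepatocyte growth factor receptor, and KLB. KLB, a co-receptor of FGFR4, entered the test through YQSHJD alone. AREG, which encodes amphiregulin, had 16.7, 17.0 and 13.7 FPKM with YQSHJD, against 2.80, 3.76 and 2.27 FPKM with saline, a 5.37-fold rise (log2 difference 2.10, limma adjusted p = 3.4e-05). EREG and HBEGF, chosen after their values were seen, encode epiregulin and heparin-binding EGF-like growth factor and had log2 differences of 1.37 and 0.58 (adjusted p = 0.000109 and 0.00824). HBEGF no longer passed under TPM rescaling (0.41, adjusted p = 0.0515), nor did MET (0.17, adjusted p = 0.314, against 0.48 and 0.0235 on the deposited scale). MET also lost its call without saline 1 or saline 3 (adjusted p = 0.0936 and 0.0602).

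The cascade from RAS to ERK held 24 listed genes, of which 20 were tested, 3 were lower and 3 higher, with a median log2 difference of 0.12. Neither count exceeded the share over all genes, 18.0% lower and 23.3% higher. Under TPM rescaling 7 were lower and 1 higher, beside 39.6% and 7.99% of all genes, and after GC correction 1 was lower and 5 higher, beside 19.7% and 24.7%. SOS1, an exchange factor that loads RAS with GTP, had 15.0, 10.6 and 10.3 FPKM with YQSHJD, against 2.11, 2.12 and 2.06 FPKM with saline, a 5.72-fold rise (log2 difference 2.05, limma adjusted p = 2.63e-05). The groups were widely separated, on 2907 to 4454 reads with YQSHJD and 738 to 775 with saline. RPS6KA3, a kinase downstream of ERK, had a log2 difference of 0.67 (adjusted p = 0.00337), and this call was lost under TPM rescaling (0.33, adjusted p = 0.0503).

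RRAS, a RAS-related GTPase, had a log2 difference of -0.41 (limma adjusted p = 0.0192), a call that GC correction removed (-0.08, adjusted p = 0.607). It was also lost with limma-voom on recovered reads (adjusted p = 0.0928) and without YQSHJD 2, saline 1 or saline 3 (adjusted p = 0.0708, 0.0812 and 0.0543). MAPK3, which encodes the kinase ERK1, had a log2 difference of -0.06 (adjusted p = 0.649) and, once corrected for GC content, one of 0.21 (adjusted p = 0.0263), and NRAS had one of 0.18 (adjusted p = 0.245). These are RNA levels, and phosphorylation of ERK was not analysed here.

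Other inhibitors of RAS and ERK signalling were listed with 14 genes, of which 11 were tested, 2 were lower and 1 higher, with a median log2 difference of -0.08. Calls in either direction were fewer than the 41.4% over all genes. Under TPM rescaling 7 of the 11 were lower and 0 higher, beside 39.6% and 7.99% of all genes. PEBP1, also called RAF kinase inhibitor protein, rose 1.44-fold, with 1213, 1382 and 1251 FPKM with YQSHJD, against 897.9, 891.1 and 889.7 FPKM with saline (limma adjusted p = 0.00142). Under TPM rescaling the log2 difference of PEBP1 was 0.16 and did not pass (adjusted p = 0.199), and after quantile normalization it was 0.05 (adjusted p = 0.64). DAB2IP, a RAS GTPase-activating protein, had a log2 difference of -0.51 (adjusted p = 0.0105) and LRIG1, an inhibitor of EGF receptors, one of -0.34 (adjusted p = 0.0455). DAB2IP lost its call without saline 1 (-0.45, adjusted p = 0.0508) and had a log2 difference of -0.26 with GC content corrected. LRIG1 lost its call without YQSHJD 1 (-0.25, adjusted p = 0.087), without YQSHJD 2 or any 1 saline library (adjusted p = 0.0612 to 0.137), and with GC content corrected (-0.21, adjusted p = 0.165).

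Output genes of the pathway outside the 10 were listed with 17 genes, of which 13 were tested, 7 were lower and 2 higher, with a median log2 difference of -0.45, where 18.0% of all genes were lower and 23.3% higher. Under TPM rescaling 10 of the 13 were lower and 1 higher, beside 39.6% and 7.99% of all genes. EGR1, an immediate early transcription factor, had 21.4, 23.1 and 25.7 FPKM with YQSHJD, against 70.8, 65.0 and 53.8 FPKM with saline, a 2.70-fold fall (log2 difference -1.39, limma adjusted p = 8.1e-05). EPHA2, a receptor of ephrins, had 51.1, 68.0 and 75.3 FPKM with YQSHJD, against 155.0, 141.4 and 124.3 FPKM with saline (log2 difference -1.11, adjusted p = 0.00071). CCND1, which encodes cyclin D1, had 129.0, 133.1 and 126.6 FPKM with YQSHJD, against 203.4, 188.8 and 175.3 FPKM with saline (log2 difference -0.54, adjusted p = 0.00149).

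FOSL1, which encodes the AP-1 subunit FRA1, went the other way with 16.7, 18.9 and 21.2 FPKM with YQSHJD, against 10.5, 9.47 and 8.54 FPKM with saline (log2 difference 0.92, limma adjusted p = 0.000525). PHLDA1, named because it was the only other rise on this list, had a log2 difference of 0.45 (adjusted p = 0.00451), which was 0.10 under TPM rescaling and did not pass (adjusted p = 0.41). The other 4 listed genes, named after their values were seen, did not reach the filter and were not tested. FOS had 1.41, 1.39 and 0.72 FPKM with YQSHJD, against 0.39, 0.41 and 0.33 FPKM with saline. Its reads were 32 to 58 with YQSHJD and 17 to 20 with saline. ETS1 had 30 to 48 reads with YQSHJD and 21 to 37 with saline, IER3 had at most 3 in any library, and EPHA4 was listed at 0 throughout.

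**Figure D5:**
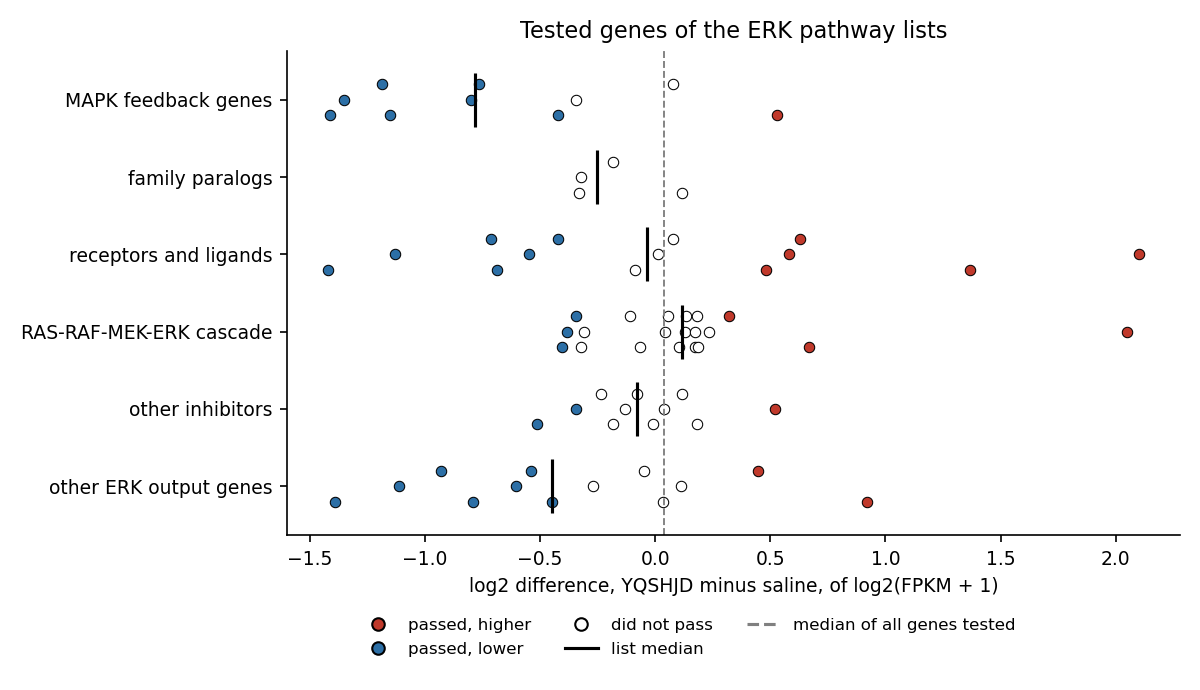
Log2 differences (YQSHJD minus saline) of the tested genes in the 10 feedback genes and in 5 lists of the ERK pathway, with red points for genes that passed higher, blue for lower and white for those that did not pass. Black bars are list medians and the dashed line is the median of all genes tested, 0.04; AREG and SOS1 are the points above 2.

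The 3 protein-coding genes whose pattern over the 6 libraries was most like that of DUSP6 were FAM168B, CDK2AP1 and MYO1D. Likeness was the mean absolute difference of log2(FPKM + 1) after centring each gene on its own mean, and it was 0.019, 0.020 and 0.023. FAM168B had 26.5, 27.3 and 25.6 FPKM with YQSHJD, against 36.8, 36.9 and 33.1 FPKM with saline. Each of the 3 shared with DUSP6 the lowest level of its group in YQSHJD 3 and in saline 3. Because the 3 were chosen for likeness over these same libraries, the shared order is not a separate result. MYO1D did not pass the limma test without saline 1 or saline 2 (adjusted p = 0.0572 and 0.0678).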

How the data were processed

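Polyadenylated RNA was sequenced from 3 YQSHJD and 3 saline libraries made with an Illumina TruSeq kit, per the labels' protocols. CASAVA 2.19 is named in the submitters' processing notes. Neither the aligner and counter, nor strand setting, build or annotation, is stated in what was used here. The authors deposited FPKM values for 62709 genes with names, coordinates and gene lengths, in the other unit of bases. Coordinates are printed as in that table, where 4 of the 10 genes had the same start and end as in GENCODE release 29 on GRCh38 and 8 shared at least a start or an end. An empty line (1) was dropped, and 6 columns matched no sample and were not used.

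FPKM times gene length gave whole multiples of a single step per library for 100% of values, within 0.01 reads, so reads were recovered. No 2 libraries of a group agreed within sampling noise.

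Genes reaching 1 FPKM in 3 or more libraries were tested with limma 3.58.1 in R 4.3.3 on log2(FPKM + 1), with trend and robust prior, two-sided, adjusted over 10966 genes at 0.05. All 10 feedback genes passed the filter, DUSP4 through saline alone. The 10 genes, the lists and the tests were chosen with earlier results of these data known. Named genes are the 10, their listed paralogs, the 3 smallest p of each other list, genes fixed by name (MAPK3, NRAS, FGFR4, EGFR, EGR1 and CCND1, and another that is not reported here) and the 3 most like DUSP6, and any others are said to be chosen after their values were seen. Promoters came from RefSeq (GRCh38.p14); where several were listed, the start nearest to the table's gene start was taken. It was the same base for 4 of 6, and for SPRY4 lay 2208 bases away.

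The scale was varied by TPM rescaling, quantile normalization, median-of-ratios factors and pseudocounts of 0.1 and 0.01. The filter was dropped or raised to 5 FPKM. The model was varied by leaving off trend and robust prior, by array weights, by limma-voom on recovered reads, and by a block for replicate number. The limma-voom fit took its library sizes from the depth implied by the FPKM values, so it kept the deposited scale. GC correction (loess with span 0.5 on the longest GENCODE transcript of each gene, found for 98.6% of genes) was run with and without that block. A stricter adjusted p of 0.01 was used, and each library was left out in turn. Figures were drawn with matplotlib 3.10.9.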

Additional observations from a re-analysis of the deposited data

How the results depend on the processing

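The falls of SPRY1, SPRY2, SPRY4, SPRED2, DUSP6, ETV4 and ETV5 kept their direction and passed under every alternative in which they were tested (20 each, 19 for SPRY2, which a minimum of 5 FPKM removed). Their log2 differences ranged from -1.81 to -1.33 for SPRY4, -1.76 to -1.28 for SPRY1, -1.57 to -1.12 for ETV5, -1.53 to -0.89 for ETV4, -1.26 to -0.73 for SPRY2, -1.15 to -0.69 for SPRED2 and -0.79 to -0.39 for DUSP6. DUSP5 lost its call under TPM rescaling alone, which left 0 of the 10 genes higher. DUSP4 passed under TPM rescaling (-0.75), without trend and robust prior (adjusted p = 0.0485), with array weights (-0.37), with limma-voom (-0.70) and without YQSHJD 1. Over all genes, 4342 were lower and 876 higher under TPM rescaling, 3236 lower and 4142 higher with array weights (whose fit did not converge and gave YQSHJD 2 a weight of 11.9 against 0.171 for YQSHJD 1), 1090 lower and 1392 higher at an adjusted p of 0.01, and 1606 higher with no filter. Leaving out single libraries gave 1217 to 2188 lower and 1588 to 2675 higher genes, both lowest without saline 1. The 5 pathway lists together held 18 lower and 11 higher genes. They held 35 lower and 5 higher under TPM rescaling, 10 lower at an adjusted p of 0.01, and 10 to 20 lower when single libraries were left out, the lowest without saline 1. The sign of genes that did not pass turned for SPRED1 (-0.22 under TPM rescaling, -0.14 after GC correction with or without the replicate block), DUSP1 (-0.24, TPM rescaling), NRAS (-0.16 under TPM rescaling, -0.0446 after GC correction with or without the block), DUSP7 (0.0385) and DUSP9 (0.0513) after GC correction with or without the block, and MAPK3 (0.0325 with array weights, 0.21 after GC correction with or without the block, 0.0233 without YQSHJD 1). The cause was not tested. With no filter on low values RRAS, DAB2IP, LRIG1, FGFR3 and MET lost their calls. The labels number the replicates alike, but same-numbered libraries did not deviate together (correlations of -0.24, -0.11 and -0.04). No library correlated best with its own number. With 3 libraries per group, each centred on its group mean, these correlations cannot decide whether the numbers mark pairs. With the replicate block 1689 genes were lower and 2018 higher, 7 of the 10 feedback genes lower and 1 higher, and 14 genes of the lists lower and 10 higher. DUSP4, near 1 FPKM, rests on 61 to 172 reads, which limits its precision.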

Other observations

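Within the saline group, saline 1 had the highest level of 7 of the 10 feedback genes and saline 3 the lowest of 8, whereas over all tested genes saline 1 was highest for 35.6% and saline 3 lowest for 33.7%. Within the YQSHJD group, YQSHJD 1 had the lowest level of 5 of the 10 and the highest of 4, and YQSHJD 3 the lowest of the other 5 and the highest of 5. YQSHJD 2 had the lowest level of 0 of the 10 and the highest of 1. Over all tested genes YQSHJD 1 was lowest for 42.4% and highest for 40.6%, and YQSHJD 3 lowest for 35.6% and highest for 35.2%. For YQSHJD 2 these shares were 21.9% and 24.2%. The counts of YQSHJD 1 lay near its shares, and counts over 10 genes are coarse. The coefficient of variation of the 10 genes was 1.95% to 21.5% with YQSHJD and 2.75% to 21.6% with saline. It was largest with YQSHJD for ETV4 (21.5%), and largest with saline for DUSP4 (21.6%).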
